A study of Mus musculus with 12 samples.

Results

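The 36 genes described here belong to the endoplasmic reticulum (ER) stress response and were measured in mouse bone marrow derived macrophages. They were taken by symbol from the 55891 rows of the deposited count table and fall into 3 sets by role. The chaperone arm holds 15 genes for protein folding in the ER: Hspa5, Hsp90b1, Pdia3, Pdia4, Pdia6, P4hb, Calr, Canx, Dnajb9, Dnajb11, Dnajc3, Sdf2l1, Creld2, Manf and Hyou1. A second set holds 8 genes for sensors, transcription factors and ER-associated degradation (ERAD): Ern1, Eif2ak3, Atf6, Xbp1, Herpud1, Edem1, Sel1l and Syvn1. The ATF4 arm holds 13 genes: Atf4, Atf3, Ddit3, Chac1, Asns, Trib3, Ppp1r15a, Sesn2, Psat1, Phgdh, Shmt2, Mthfd2 and Slc3a2. All 36 were found in the table, and all 36 were among the 13525 genes that passed the filter on low counts.

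RNA sequencing compared Ptprz1 knockout (KO, genotype label PTPRZ_KO) with wild type (WT, PTPRZ_WT) macrophages in 6 groups of 2 libraries. Marrow cells of every group were grown for 6 days with M-CSF at 10 ng/mL, a cytokine that turns marrow progenitors into macrophages. They were then left as control, given LPS (a bacterial lipopolysaccharide, 100 ng/mL) plus IFNγ (10 ng/mL) for 24 h, or exposed over 24 h to 20 ng/mL of IL-4. The strain label reads B6.129-Ptprz1tm1Nmo for all samples, WT included, although WT titles begin with B6. No age is given in the labels used here. The labels do not tell if a group's libraries are from separate mice or cultures, so every p-value measures only the spread between these libraries, which may be technical.

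Secreted and membrane proteins fold in the ER with the help of HSP70 and HSP90 type chaperones, lectin chaperones and disulfide isomerases. When unfolded protein builds up, ER membrane sensors start the unfolded protein response. ATF6 is cut to release a transcription factor, and IRE1 (encoded by Ern1) splices Xbp1 mRNA, and both factors raise chaperone and ERAD genes through ER stress response elements in promoters. PERK (encoded by Eif2ak3) phosphorylates eIF2α, which lowers general translation but raises translation of Atf4. ATF4 then raises genes for amino acid synthesis and transport through C/EBP-ATF response elements. Other eIF2α kinases feed the same ATF4 branch, which is then called the integrated stress response. Macrophages are secretory cells, and both IL-4 and LPS with IFNγ change what they secrete. Splicing of Xbp1, cleavage of ATF6 and phosphorylation of eIF2α cannot be read from gene-level counts.

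The promoter stretches below are shown because they hold the elements through which, as background, each arm is known to be controlled. Promoters (250 bases before to 50 after the RefSeq start, GRCm38.p6) were found for 33 of the 36 members, all but Atf6, Hyou1 and Manf. The motifs searched on both strands were the ER stress response element (ERSE: CCAAT, 9 bases, CCACG), ERSE-II (ATTGG, 1 base, CCACG), the unfolded protein response element (UPRE: TGACGTGG) and the C/EBP-ATF response element (CARE: TGATGNAA). The matches shown do not overlap one another. Each stretch is written 5′ to 3′ on the strand of its gene, with 12 flanking bases on each side of the matches and the fixed bases of the motif in capitals.
Hspa5, ERSE, chr2:34772013-34772055, + strand: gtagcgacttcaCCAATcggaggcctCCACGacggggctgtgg
Calr, ERSE in reverse, chr8:84847063-84847105, - strand: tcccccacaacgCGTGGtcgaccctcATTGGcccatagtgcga
Hsp90b1, 2 ERSE, chr10:86705521-86705668, - strand: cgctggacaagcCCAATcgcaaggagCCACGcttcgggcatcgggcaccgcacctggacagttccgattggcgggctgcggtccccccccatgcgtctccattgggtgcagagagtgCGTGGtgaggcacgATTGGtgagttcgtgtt
Syvn1, ERSE, chr19:6046520-6046562, + strand: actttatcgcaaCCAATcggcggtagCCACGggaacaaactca
Herpud1, CARE and ERSE-II, chr8:94386305-94386399, + strand: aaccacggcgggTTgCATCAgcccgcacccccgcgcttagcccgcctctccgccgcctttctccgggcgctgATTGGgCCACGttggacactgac
Asns, CARE, chr6:7693213-7693244, - strand: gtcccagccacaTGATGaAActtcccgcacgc
Atf3, CARE in reverse, chr1:191183424-191183455, - strand: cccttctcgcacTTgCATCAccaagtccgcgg

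An ERSE was found in 7 of the 13 chaperone promoters, those of Hspa5, Hsp90b1, Calr, Canx, Creld2, Dnajc3 and Pdia6. Among the 7 promoters of the second set it was in that of Syvn1, and among the 13 of the ATF4 arm it was in 0. Over all 27025 genes with a RefSeq promoter, 0.137% had an ERSE match. ERSE-II, at 0.0444% of genes, was in Dnajb11 and Herpud1. CARE, at 4.51% of genes, was in 4 of the 13 ATF4 arm promoters (Asns, Atf3, Chac1 and Trib3), in Herpud1, and in 0 of the chaperone promoters. UPRE, at 0.714% of genes, was in none of the members. The matches in Dnajb11 and Trib3 lay after the start. A match is a run of letters in this window and not a measured site.

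**Figure D1:**
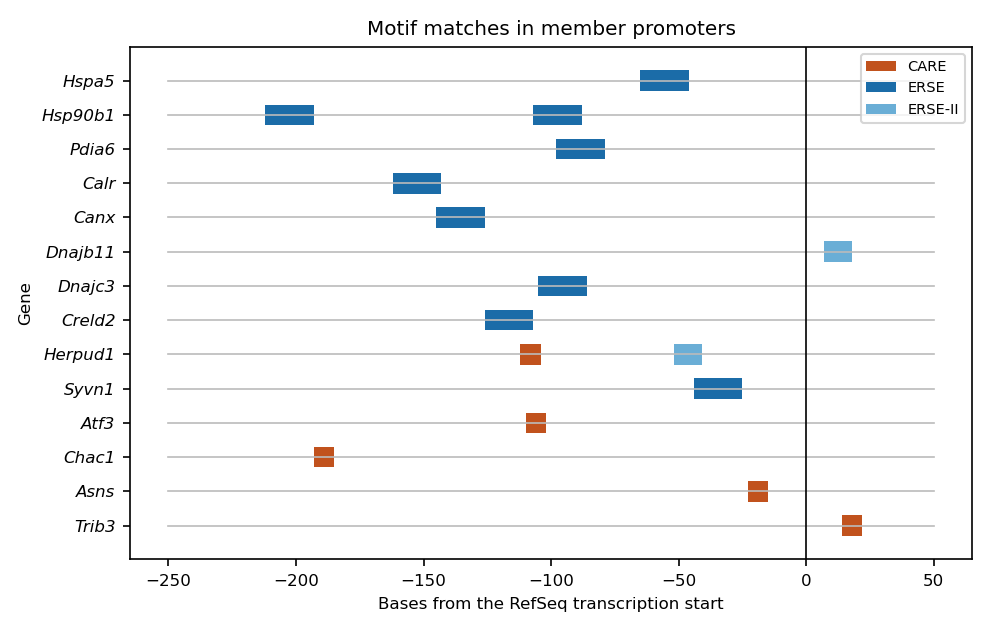
Positions of motif matches (bars) in the 14 member promoters that had any, in bases from the RefSeq start (0); grey lines mark the window searched. Blue ERSE bars lie in chaperone promoters and Syvn1, orange CARE bars in the ATF4 arm and Herpud1.

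Ptprz1 itself had 0 counts in 11 of the 12 libraries and 7 in WT IL-4 library 2, so it does not check the genotype labels. Total counts per library ran from 13665607 to 19555600, and KO LPS+IFNγ library 2 was the shallowest. All 8 macrophage markers listed were detected, with a summed level of 8138 to 20865 CPM (counts divided by library size after edgeR's TMM scaling). Of the 6 T and NK cell markers, 4 (Cd3e, Cd3d, Cd3g and Ncr1) had at most 3 counts in any library. Trac and Klrb1c had more in at least 1 library, and the 6 summed to at most 1.71 CPM. The 8 granulocyte markers summed to at most 13.4 CPM in control and IL-4 libraries, 25.6 to 39.3 in the other 3 LPS+IFNγ libraries and 221 in KO LPS+IFNγ library 2. In that library S100a8 made up 220.3 CPM of the sum, while S100a9, Ngp, Ltf, Elane and Ly6g had 0 counts. The 8 B and plasma cell markers, 3 of them tested, summed to 60.3 and 62.3 CPM in WT control and 29.5 and 30.2 in KO control. Over both genotypes they summed to 10.1 to 24.5 CPM after IL-4 and 0.484 to 38.6 after LPS+IFNγ. Summed markers of stromal cells were 72.8 to 414 CPM in WT libraries and 348 to 1522 CPM in KO libraries, with 9 of 11 markers tested. Library 2 held more of them than library 1 in all 6 groups, with 865 to 1522 CPM in the KO libraries numbered 2. KO LPS+IFNγ library 2 also stood above its partner in 14 of 15 chaperones and 10 of 13 ATF4 arm genes, as described with the genotype comparison. The part of these markers was not tested.

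At rest 6 chaperones held the highest levels of the 36 genes. Per kilobase of exon, the WT control levels of Calr (calreticulin, a calcium-binding lectin chaperone), Hsp90b1 (GRP94), P4hb and Pdia3 (disulfide isomerases), Hspa5 (BiP, the main ER HSP70) and Canx (calnexin) took ranks 1 to 6 of 36, from 209 CPM per kb for Calr down to 116 for Canx. Atf3, at 108 CPM per kb, ranked 7 and was the most abundant gene of the ATF4 arm. The lowest ranks were held by Ddit3 (4.44), Phgdh (4.11), Trib3 (1.65) and Chac1 (0.328). Chac1 had between 3 and 38 counts in every library and was not called in any comparison, with a 95% interval for LPS+IFNγ in WT of -2.32 to 1.29. The length used is that of all annotated exons merged, so these levels are approximate.

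**Figure D2:**
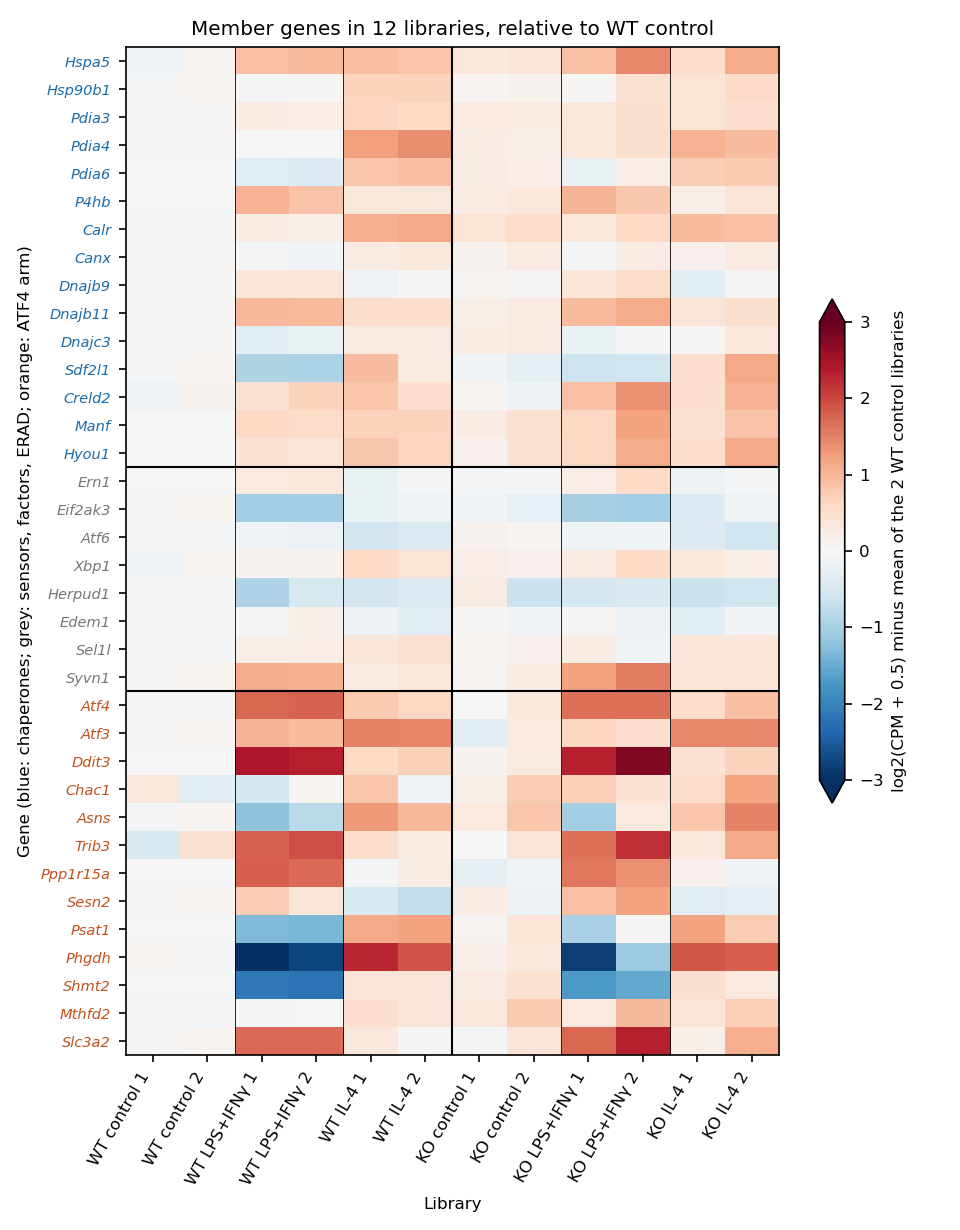
Each member gene (rows, coloured by set) in the 12 libraries (columns), as log2(CPM + 0.5) minus the mean of the 2 WT control libraries; red is higher and blue is lower. IL-4 columns are red over most chaperones, while LPS+IFNγ columns are red for Atf4, Ddit3 and Slc3a2 and blue for Phgdh and Shmt2.

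IL-4 raised 7 of 15 chaperones in WT macrophages. Called genes (Benjamini-Hochberg adjusted p under 0.05 over all genes tested, in the quasi-likelihood test of edgeR) were 14 of 36 members, 13 higher and 1 lower, against 9.04% of all genes. Of the 15 chaperones, 7 rose (Pdia4, Calr, Pdia6, Hspa5, Hsp90b1, Pdia3 and Dnajb11) and 0 fell, where 4.92% of all genes were called higher and 4.12% lower. The median log2 fold change over all 15 was 0.68, against -0.02 over all genes. The 2 IL-4 libraries lay above both controls for 14 of 15 chaperones, against 30.8% of all genes. The exception was Dnajb9 (ERdj4), whose IL-4 libraries both lay below the controls, at 33.8 and 35.8 CPM in control and 32.5 and 33.2 after IL-4. In bulk RNA, a change in the share of cells of a type and a change in RNA per cell cannot be told apart. The 8 macrophage markers moved with IL-4 as well, at 8138 to 8485 CPM summed in WT IL-4 against 15038 to 15080 in WT control, with 4 of 8 called lower (Cd14, Fcgr1, Lyz2 and Mertk) and 0 higher, and their part was not tested.

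Pdia4 (ERp72, a disulfide isomerase, GRCm38 chr6:47796141-47813430) had 74.8 and 79.8 CPM in the WT control libraries, 76.6 and 76.7 after LPS+IFNγ and 183 and 204 after IL-4. Its IL-4 libraries thus stood alone, with a log2 fold change ± SE of 1.33 ± 0.10 (adjusted p = 2.77e-04). Calr (chr8:84841850-84846934) had 584 and 618 CPM in control, 707 and 677 after LPS+IFNγ and 1289.9 and 1314 after IL-4, and rose by 1.11 ± 0.13 with IL-4 (adjusted p = 0.00138). The named pseudogene Calr-ps may share reads with it. Hsp90b1 had 544 and 591 CPM in control and 556 and 578 after LPS+IFNγ, which overlap, against 903 and 915 after IL-4. Its change with IL-4 was 0.68 ± 0.15 (adjusted p = 0.0234). Hsp90b1 overlaps a pseudogene on the opposite strand, and the use of strand in counting is not given. Hspa5 (chr2:34771970-34777547), the usual marker of the response, had 459.9 and 521 CPM in control and rose to 908 and 944 with LPS+IFNγ and 917 and 878 with IL-4. Both stimulated groups lay above both controls, by 0.92 ± 0.22 (adjusted p = 0.00536) and 0.87 ± 0.21 (adjusted p = 0.0372).

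The number of IL-4 calls was not stable. Without any 1 of the 4 WT control and IL-4 libraries, 2 or 3 chaperones were called instead of 7. Calr and Pdia4 were called without each of the 4 in turn, as was Atf3 in the ATF4 arm. Fitted to those 4 libraries alone, the model called 13 chaperones, where 1859 of 12448 genes were called higher and 1616 lower.

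In KO macrophages, IL-4 called 7 of 36 members, 6 higher and 1 lower, against 6.86% of all genes (3.52% higher, 3.34% lower). Of the chaperones, Pdia4 (0.78 ± 0.10), Pdia6 (0.54 ± 0.13) and Sdf2l1 (1.04 ± 0.23), a component of chaperone complexes, rose and 0 fell. Pdia4 and Pdia6 were called in both genotypes. Pdia4 went from 90.4 and 87.2 to 159 and 147 CPM (adjusted p = 0.00333), and it was called without each of the 4 KO libraries in turn. Sdf2l1 was uneven, at 42.7 and 36.7 CPM in control and 64.3 and 99 after IL-4. The median over the 15 chaperones was 0.41. The number of chaperones called changed when 1 library was left out. With the 4 KO libraries alone 0 chaperones were called, where only 7 of 12555 genes were called higher and 1 lower. That 0 is therefore not particular to the chaperones.

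LPS+IFNγ did not move the chaperones one way. In WT macrophages 20 of 36 members were called (55.6%), 13 higher and 7 lower, against 54.3% of all genes (27.4% higher, 27% lower), so the share of members called was near that of any gene. Of the chaperones, 5 rose with TMM factors (Dnajb11, P4hb, Hspa5, Manf and Dnajb9, the last at -0.13 with total counts), 2 fell (Sdf2l1 and Pdia6) and 8 were not called, with a median of 0.22 against -0.05 for all genes. The LPS+IFNγ libraries had TMM factors of 0.756 to 0.833, against 1.09 to 1.16 for the others, so these counts rest on the scaling. With total counts in place of TMM factors, the median of all genes moved from -0.05 to -0.55, the share of calls that were higher went from 50.4% to 24.9%, and the chaperone arm had 2 called higher (Dnajb11 and P4hb) and 8 lower, with Hspa5, Manf and Dnajb9 no longer called. The same step gave 2 higher (Dnajb11 and Creld2) and 7 lower in KO, where the share of all calls that were higher went from 51% to 24.8%. The 9 mitochondrially encoded transcripts moved with LPS+IFNγ too, at 10117 to 13984 CPM summed in the 4 LPS+IFNγ libraries against 20635 to 30028 in the 4 controls. Of the 9, 5 were called lower in WT and 6 in KO, and their part in these changes was not tested.

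Dnajb11 (ERdj3, a BiP co-chaperone) had 93.4 and 97.3 CPM in control, 187 and 183 after LPS+IFNγ and 139 and 138 after IL-4 in WT. These groups did not overlap, and the rise with LPS+IFNγ was 0.96 ± 0.10 (adjusted p = 2.93e-05). P4hb had 392 and 402 CPM in control, 811 and 723 after LPS+IFNγ and 502 and 502 after IL-4, a rise with LPS+IFNγ of 0.95 ± 0.12 (adjusted p = 1.50e-04). Dnajb9 rose by 0.37 ± 0.13 with TMM factors (adjusted p = 0.0389), but its change was -0.13 with total counts. Pdia6 went from 142 and 145 to 111 and 109.8 CPM (-0.37 ± 0.13, adjusted p = 0.0331), against 257 and 269 after IL-4. Sdf2l1 fell from 43.4 and 46.7 to 24 and 23.2 CPM (-0.93 ± 0.24, adjusted p = 0.00863). Dnajb11, Hspa5 and P4hb were called without each of the 4 WT libraries in turn. Leaving out any 1 of the 4 left 3 chaperones called higher and at most 1 lower.

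In KO macrophages LPS+IFNγ also called 20 of 36 members, 16 higher and 4 lower, against 53.3% of all genes (27.2% higher, 26.1% lower). With TMM factors the 5 chaperones that rose in WT rose in KO as well (Dnajb9 was -0.09 with total counts), with Creld2 (1.20 ± 0.22) and Hyou1 (0.58 ± 0.22), an ER HSP70 relative, in addition. With total counts P4hb, Hspa5, Manf, Hyou1 and Dnajb9 were not called. The lower call was Dnajc3 (P58IPK, -0.37 ± 0.11). Without KO LPS+IFNγ library 2 the higher calls dropped from 7 to 3, and without KO control library 1 to 4. Creld2, Dnajb11 and P4hb were called without each KO library in turn.

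**Figure D3:**
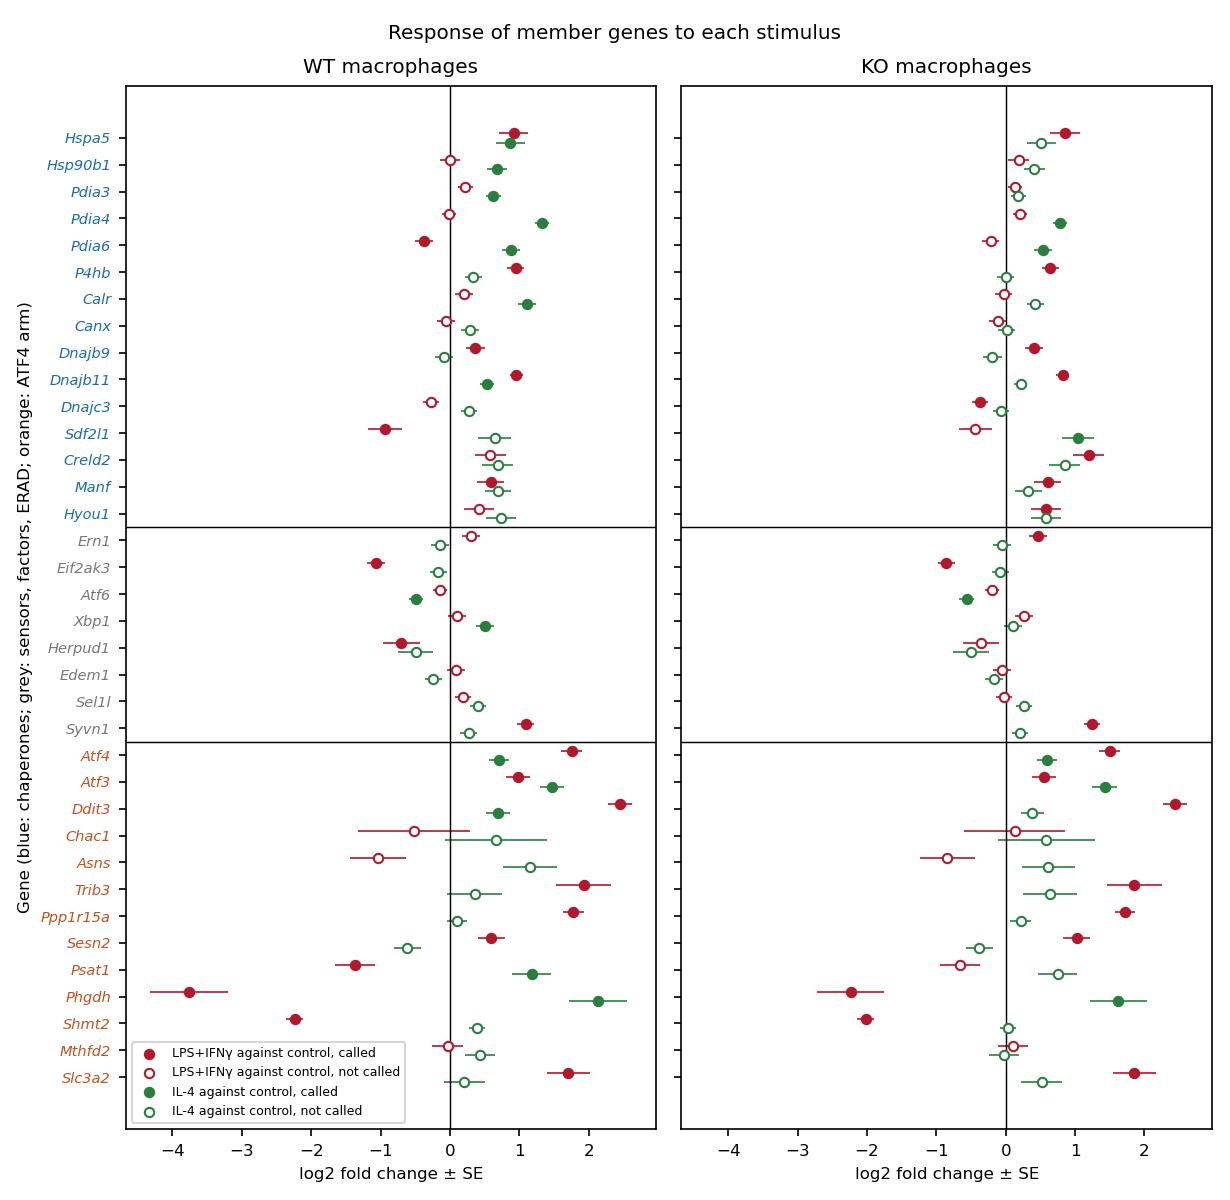
Log2 fold change ± SE of each member with LPS+IFNγ (red) and IL-4 (green) against control, in WT and KO macrophages; filled points were called in edgeR's test. With IL-4 the chaperone points lie mostly right of 0, and with LPS+IFNγ they lie on both sides while the ATF4 arm runs from -3.76 (Phgdh) to 2.45 (Ddit3) in WT; LPS+IFNγ points depend on the scaling, and Dnajb9 in both genotypes and Ern1 in KO change sign with total counts.

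Of the 8 sensors, factors and ERAD genes, 1 rose (Syvn1) and 2 fell (Eif2ak3 and Herpud1) with LPS+IFNγ in WT. These calls were 37.5% of the set, against 54.3% of all genes, so their count was not above the background. With IL-4 in WT, 1 rose (Xbp1) and 1 fell (Atf6), which is 25% of the set against 9.04% of all genes. Ern1, the IRE1 sensor, had 71.2 and 69.8 CPM in WT control, 86.7 and 87.5 after LPS+IFNγ and 60.1 and 67.6 after IL-4. Its change with LPS+IFNγ was 0.31 ± 0.13 in WT (adjusted p = 0.0711) and 0.46 ± 0.13 in KO, where it was called with TMM factors (adjusted p = 0.0133) but was -0.04 with total counts. Eif2ak3, the PERK sensor, had 33.3 and 36.7 CPM in WT control, 16.6 and 16.9 after LPS+IFNγ and 30.3 and 31.9 after IL-4. It fell with LPS+IFNγ by 1.06 in WT (SE 0.13, adjusted p = 8.98e-05) and by 0.86 in KO (SE 0.13), and was called without each library in turn in both. A gene model on the opposite strand overlaps its exons. Atf6, the third sensor, fell with IL-4 by 0.49 in WT (SE 0.10, adjusted p = 0.0211), from 186 and 177 to 123 and 136 CPM, and by 0.56 in KO (SE 0.10). Neither Atf6 call held without each library in turn.

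Xbp1, the target of IRE1 splicing, had 93.4 and 106 CPM in WT control, 107 and 107 after LPS+IFNγ and 151 and 132 after IL-4. It rose with IL-4 (0.51 ± 0.13, adjusted p = 0.0436) in WT, and this call was lost without any 1 of the 4 libraries and with DESeq2's size factors. Syvn1 (HRD1, the ERAD ubiquitin ligase) had 41.2 and 44.1 CPM in WT control, 92.2 and 89.9 after LPS+IFNγ and 49.9 and 52.8 after IL-4. It rose with LPS+IFNγ in WT (1.09 ± 0.12, adjusted p = 4.89e-05) and in KO (1.24 ± 0.12), and these calls held without each library in turn. Its partner Sel1l and the mannosidase-like Edem1 were not called with either stimulus in either genotype, with changes from -0.24 (Edem1) to 0.41 (Sel1l), both with IL-4 in WT. Herpud1, which helps assemble the ligase complex, fell with LPS+IFNγ in WT (-0.70 ± 0.26, adjusted p = 0.0461), a call lost without WT control library 1, WT control library 2 or WT LPS+IFNγ library 1.

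With LPS+IFNγ, 7 of the 13 ATF4 arm genes rose in both genotypes. These were Ddit3, Trib3, Ppp1r15a, Atf4, Slc3a2, Atf3 and Sesn2. In WT, 3 fell (Phgdh, Shmt2 and Psat1) and 3 were not called (Asns, Mthfd2 and Chac1). In KO, 2 fell (Phgdh and Shmt2). Of all genes, 27.4% were higher and 27% lower in WT and 27.2% and 26.1% in KO, so the count of lower genes in the arm was not above the background. With total counts 6 were called higher in each genotype, and 5 lower in WT and 4 in KO. Of all 13525 genes, that scaling called 2048 higher and 6170 lower in WT, and 1990 higher and 6049 lower in KO. The arm thus held calls in both directions under either scaling, as did all genes, and its lower calls were again not above the background. Over the 4 fits that each left out 1 library, 6 of the 7 rises were kept in each genotype, with Sesn2 lost in WT and Atf3 in KO.

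Atf4 (chr15:80255184-80257541), the transcription factor itself, had 92.4 and 97.6 CPM in WT control, 317 and 325 after LPS+IFNγ and 164 and 147 after IL-4. All 3 groups were apart, with rises of 1.76 ± 0.15 (adjusted p = 1.02e-05) and 0.71 ± 0.15 (adjusted p = 0.0192). Ddit3 (CHOP, a factor tied to cell death in ER stress, chr10:127290774-127296288) had 7.53 and 7.69 CPM in control, 43 and 40.4 after LPS+IFNγ and 11.8 and 12.7 after IL-4. Its rise with LPS+IFNγ was the largest of the 36 in both genotypes, 2.45 ± 0.17 in WT (adjusted p = 3.51e-06) and 2.44 ± 0.17 in KO. The row used was the longer of 2 rows with this symbol, the other had 0 counts, and an exon of Mars overlaps it on the opposite strand. Trib3, a pseudokinase that damps ATF4 and CHOP, had 2.28 and 4.73 CPM in control, 12.5 and 14.2 after LPS+IFNγ and 4.97 and 4.03 after IL-4, and rose with LPS+IFNγ by 1.93 ± 0.40 (adjusted p = 0.00256).

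Ppp1r15a (GADD34, which reverses eIF2α phosphorylation) rose from 15.2 and 15.3 to 53.9 and 50.9 CPM in WT (1.78 ± 0.15, adjusted p = 8.63e-06), and had 14.6 and 18 after IL-4. Slc3a2 (CD98 heavy chain, the partner of amino acid transporters) rose from 149.6 and 161 to 508 and 508 CPM (1.71 ± 0.30, adjusted p = 0.0011). Atf3, an early stress factor, rose with both stimuli in WT and was higher with IL-4 than with LPS+IFNγ, at 222 and 242 CPM in control, 472 and 448 after LPS+IFNγ and 648 and 639 after IL-4 (0.99 ± 0.18, adjusted p = 0.00109, and 1.47 ± 0.18, adjusted p = 0.00188).

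Phgdh and Shmt2 fell with LPS+IFNγ in both genotypes and Psat1 in WT. Phgdh, the first enzyme of serine synthesis (chr3:98313170-98339990), had 10.7 and 9.75 CPM in WT control, 0.409 and 1.08 after LPS+IFNγ and 50.9 and 38.9 after IL-4. It fell with LPS+IFNγ by 3.76 (SE 0.56, adjusted p = 3.77e-04) and rose with IL-4 by 2.13 ± 0.42 (adjusted p = 0.0164). The LPS+IFNγ libraries held 6 and 16 counts, and the pseudogene Phgdh-ps1 may share reads. KO libraries had 11.4 and 12.9 CPM in control, 1.01 and 4.45 after LPS+IFNγ and 38.3 and 36.8 after IL-4, with changes of -2.24 ± 0.49 (adjusted p = 0.00361) and 1.62 ± 0.41 (adjusted p = 0.0476). Psat1, which acts after it in the same pathway, had 43.5 and 43 CPM in WT control, 17.1 and 16.5 after LPS+IFNγ and 95.6 and 100.3 after IL-4, and was called in both directions (-1.36 ± 0.29 and 1.18 ± 0.28). Neither IL-4 call of Phgdh and Psat1 in WT, nor that of Phgdh in KO, held without each library in turn.

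Shmt2, which converts serine to glycine in mitochondria, had 37.6 and 38.8 CPM in WT control, 8.31 and 7.86 after LPS+IFNγ and 49.9 and 50.5 after IL-4. It fell by 2.24 with LPS+IFNγ in WT (SE 0.13, adjusted p = 1.05e-06) and by 2.02 in KO (SE 0.12), and its change with IL-4 was 0.39 ± 0.11 (adjusted p = 0.0635). An exon of Ndufa4l2 overlaps Shmt2 on the opposite strand. Mthfd2, the next step of the mitochondrial folate pathway, had 45.2 and 43.1 CPM in control and 42 and 44.1 after LPS+IFNγ, which overlap (-0.03 ± 0.22). Asns, asparagine synthetase, had 15.3 and 16.4 CPM in WT control, 6.61 and 8.81 after LPS+IFNγ and 38.9 and 31.7 after IL-4. The groups did not overlap, but neither -1.04 ± 0.41 (adjusted p = 0.0554) nor 1.16 ± 0.39 (adjusted p = 0.0953) passed the test.

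With IL-4, 5 ATF4 arm genes rose in WT (Phgdh, Atf3, Psat1, Atf4 and Ddit3) and 0 fell, with a median of 0.67, where 4.92% of all genes were higher and 4.12% lower and the median was -0.02. In KO 3 rose (Phgdh, Atf3 and Atf4) and 0 fell, where 3.52% and 3.34% of all genes did. Leaving out any 1 of the 4 WT libraries left 1 called, and Atf3 was called without each library in turn in both genotypes.

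**Figure D4:**
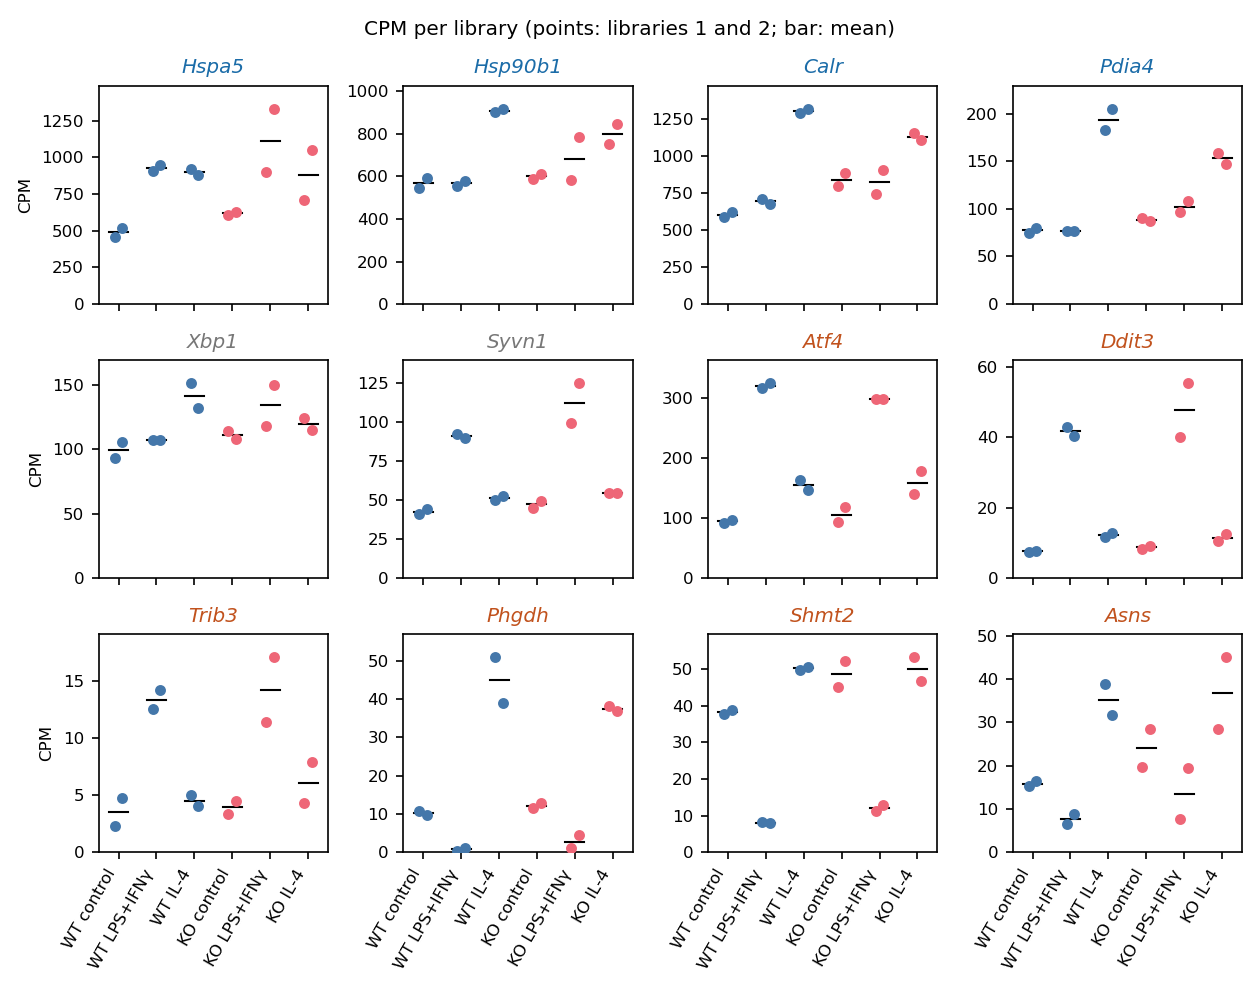
CPM of 12 members in every library (points; blue WT, red KO) with the mean of the 2 libraries (bar), on a linear axis from 0. Calr and Pdia4 are highest with IL-4, Atf4 and Ddit3 are highest with LPS+IFNγ, and Phgdh and Shmt2 are lowest with LPS+IFNγ; KO LPS+IFNγ library 2 lies above library 1 for Hspa5, Ddit3 and Asns.

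Set against each other, the stimuli differed in most members and also in most of all genes tested. LPS+IFNγ against IL-4 called 27 of 36 members in WT (12 higher, 15 lower), against 56.2% of all genes (28.1% in each direction), and 23 in KO (12 higher, 11 lower), against 54.9% (26.7% higher, 28.1% lower). The 12 higher genes were the same in both genotypes (with total counts, Dnajb11 was -0.01 in WT and Atf6 -0.09 in WT and -0.11 in KO): Atf4, Ddit3, Trib3, Ppp1r15a, Sesn2 and Slc3a2 of the ATF4 arm, Dnajb11, Dnajb9 and P4hb of the chaperones, and Atf6, Ern1 and Syvn1. All 11 lower in KO were also lower in WT: Calr, Pdia4, Pdia6, Dnajc3 and Sdf2l1 of the chaperones, Asns, Atf3, Phgdh, Psat1 and Shmt2 of the ATF4 arm, and Eif2ak3. Phgdh differed the most, by -5.90 in WT (SE 0.56, adjusted p = 1.93e-05) and -3.86 in KO (SE 0.49). Ddit3 differed by 1.76 ± 0.17 in WT (adjusted p = 1.81e-05), Pdia4 by -1.34 ± 0.10 (adjusted p = 5.64e-06) and Calr by -0.91 ± 0.13 (adjusted p = 2.12e-04). Hspa5 was not called, with a difference of 0.04 ± 0.21 in WT (95% interval -0.44 to 0.52). With total counts, 0 chaperones and 1 gene of the second set were called higher in each genotype, and the share of all calls that were higher went from 49.9% to 28.1% in WT and from 48.7% to 25.3% in KO.

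The responses of members with and without a motif match overlapped. With IL-4 in WT, the 8 chaperones with an ERSE or ERSE-II ranged from 0.27 to 1.11 with a median of 0.68. The 5 without one ranged from -0.08 to 1.33 with a median of 0.63, and Pdia4, which rose the most, was among them. The 4 ATF4 arm genes with a CARE ranged from -1.04 (Asns) to 1.93 (Trib3) with LPS+IFNγ in WT, inside the range of the 9 without. Atf3 and Asns, whose stretches are shown above, had changes of opposite sign with LPS+IFNγ. These ranges are descriptions.

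No member was called between KO and WT. For controls, for LPS+IFNγ, for IL-4 and for the mean of the 3, in that order, 0 of 36 stood against 0.0739%, 0.0591%, 0.0665% and 0.17% of all genes, and 0 of 36 for either interaction of genotype and stimulus, against 0%. At an unadjusted p under 0.05, edgeR's test gave 6 members higher and 0 lower in control, 10 and 1 after LPS+IFNγ, 0 and 1 after IL-4, and 7 and 0 for the mean, where 7.48%, 8.27%, 3.35% and 11.3% of all genes had such a p in either direction. For the interactions with LPS+IFNγ and IL-4 it gave 0 and 4 members, against 3.52% and 4.47%. DESeq2 called 1, Calr in control (0.49, adjusted p = 0.0135), where it called 29 of 13525 genes higher and 39 lower. Without the filter on low counts, edgeR called Psat1 after LPS+IFNγ (0.97, adjusted p = 0.0224), where 55 of 22844 genes were higher and 26 lower. For the mean it then called Mthfd2 (0.47, adjusted p = 0.00876), where 222 of 22844 genes were higher and 90 lower. The 5 sex-linked transcripts listed went with genotype, at 232 to 618 CPM summed in WT libraries and 157 to 198 in KO libraries. They are Xist, which marks female cells, and the Y-linked Ddx3y, Eif2s3y, Kdm5d and Uty, so the sum hides opposite directions. With LPS+IFNγ in WT, 1 of the 5 had a negative change and 0 a positive one, with a median of 0. Genotype and sex, as far as these transcripts mark it, therefore cannot be told apart here. The stromal markers given above were higher in KO. The part of either list in any genotype difference was not tested.

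KO control library 1 stood apart in interferon-stimulated genes, with 281 CPM summed over 10 genes against 51.4 to 57.3 in the other 3 controls, and all 10 were higher in KO control at an unadjusted p under 0.05 (median 2.00), with 0 called. Without that library the medians of KO against WT in control were 0.27 over the chaperones and 0.35 over the ATF4 arm, against 0.22 and 0.21 with it. In control, KO libraries lay above both WT libraries for 21 of 36 members and below for 4, where 21.6% and 22.6% of all genes did so. The chaperones made up 11 of the 21, and their median was 0.22. Calr had 584 and 618 CPM in WT and 799 and 881 in KO, a difference of 0.48 ± 0.13 (95% interval 0.20 to 0.76, adjusted p = 0.511). Pdia3 had 417 and 432 CPM in WT and 516 and 507 in KO (0.27 ± 0.10, adjusted p = 0.666). Shmt2 had 37.6 and 38.8 CPM in WT against 45.1 and 52.2 in KO (0.35 ± 0.11, adjusted p = 0.666), and Mthfd2 had 45.2 and 43.1 against 56.1 and 75.9 (0.58 ± 0.22, adjusted p = 0.666). For all 4 the KO libraries were above the WT libraries, and none passed the test.

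After LPS+IFNγ, KO libraries lay above both WT libraries for 18 members and below for 3, where 19.5% and 19.6% of all genes did so. Shmt2 had 8.31 and 7.86 CPM in WT and 11.3 and 12.8 in KO (0.57 ± 0.13, adjusted p = 0.539), and Pdia4 had 76.6 and 76.7 against 96.3 and 109 (0.42 ± 0.10, adjusted p = 0.564). Psat1 had 17.1 and 16.5 CPM in WT and 21.7 and 44.6 in KO (0.97 ± 0.29, adjusted p = 0.564), and Mthfd2 had 42 and 44.1 against 54.6 and 87.4 (0.72 ± 0.22, adjusted p = 0.564), with KO library 2 the higher one for both. Without that library the median of the chaperone arm went from 0.26 to 0.08 and that of the ATF4 arm from 0.47 to 0.01, with 7 of 13 ATF4 arm genes above 0 instead of 10. That library also held the S100a8 level given above. Without KO LPS+IFNγ library 1, the KO side of this comparison rests on library 2 alone. The medians were then 0.38 for the chaperone arm and 0.62 for the ATF4 arm, with Psat1 at 1.41 and Mthfd2 at 1.02.

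Between the libraries of that group, the median difference was 0.28 on the log2 scale over the chaperones and 0.46 over the ATF4 arm, against 0.00 over all genes. Asns had 7.56 and 19.6 CPM, Phgdh 1.01 and 4.45 and Hspa5 898 and 1326 in KO LPS+IFNγ libraries 1 and 2. In KO IL-4, 13 of 15 chaperones were higher in library 2, with a median difference of 0.20, and Hspa5 had 711 and 1052 CPM there. In WT LPS+IFNγ and WT IL-4 the median differences of the chaperones were -0.03 and -0.01. In WT control all 15 chaperones were higher in library 2, by a smaller median of 0.08, and in KO control 12 of 13 ATF4 arm genes were, by 0.33.

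After IL-4 the direction was the other one, with KO libraries below both WT libraries for 10 members and above for 2, where 15.6% and 15.1% of all genes did so. The chaperone median was -0.08. Pdia4 had 183 and 204 CPM in WT and 159 and 147 in KO (-0.34 ± 0.10, adjusted p = 0.98), and Xbp1 had 151 and 132 against 124 and 115 (-0.25 ± 0.13, adjusted p = 0.98). Pdia3 had 664 and 648 CPM in WT and 564 and 598 in KO (-0.18 ± 0.10, adjusted p = 0.98). Slc3a2 had 198 and 160.3 CPM in WT and 175 and 333 in KO, and its difference went from 0.50 to -0.03 without KO IL-4 library 2. Leaving that library out put 0 of 15 chaperones above 0 (median -0.20). When KO IL-4 library 1 was dropped instead, 8 of 15 chaperones lay above 0 (median 0.03). The sign of the chaperone median thus depended on which KO library was kept. In KO IL-4 library 2 the mitochondrially encoded transcripts were also low, at 11889 CPM summed against 24163 in library 1. Their part was not tested. The interaction of genotype with IL-4 was negative for 13 of 15 chaperones (median -0.33), the largest being Calr at -0.69 ± 0.18 and Pdia4 at -0.54 ± 0.14, neither past the test (adjusted p = 0.9999 for each). It shares the control libraries with the control comparison above. For the mean over the 3 treatments, the members with the smallest p were Shmt2 (0.30 ± 0.07, adjusted p = 0.27), Mthfd2 (0.47 ± 0.13, adjusted p = 0.378), Syvn1 (0.18 ± 0.07) and Calr (0.18 ± 0.07).

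**Figure D5:**
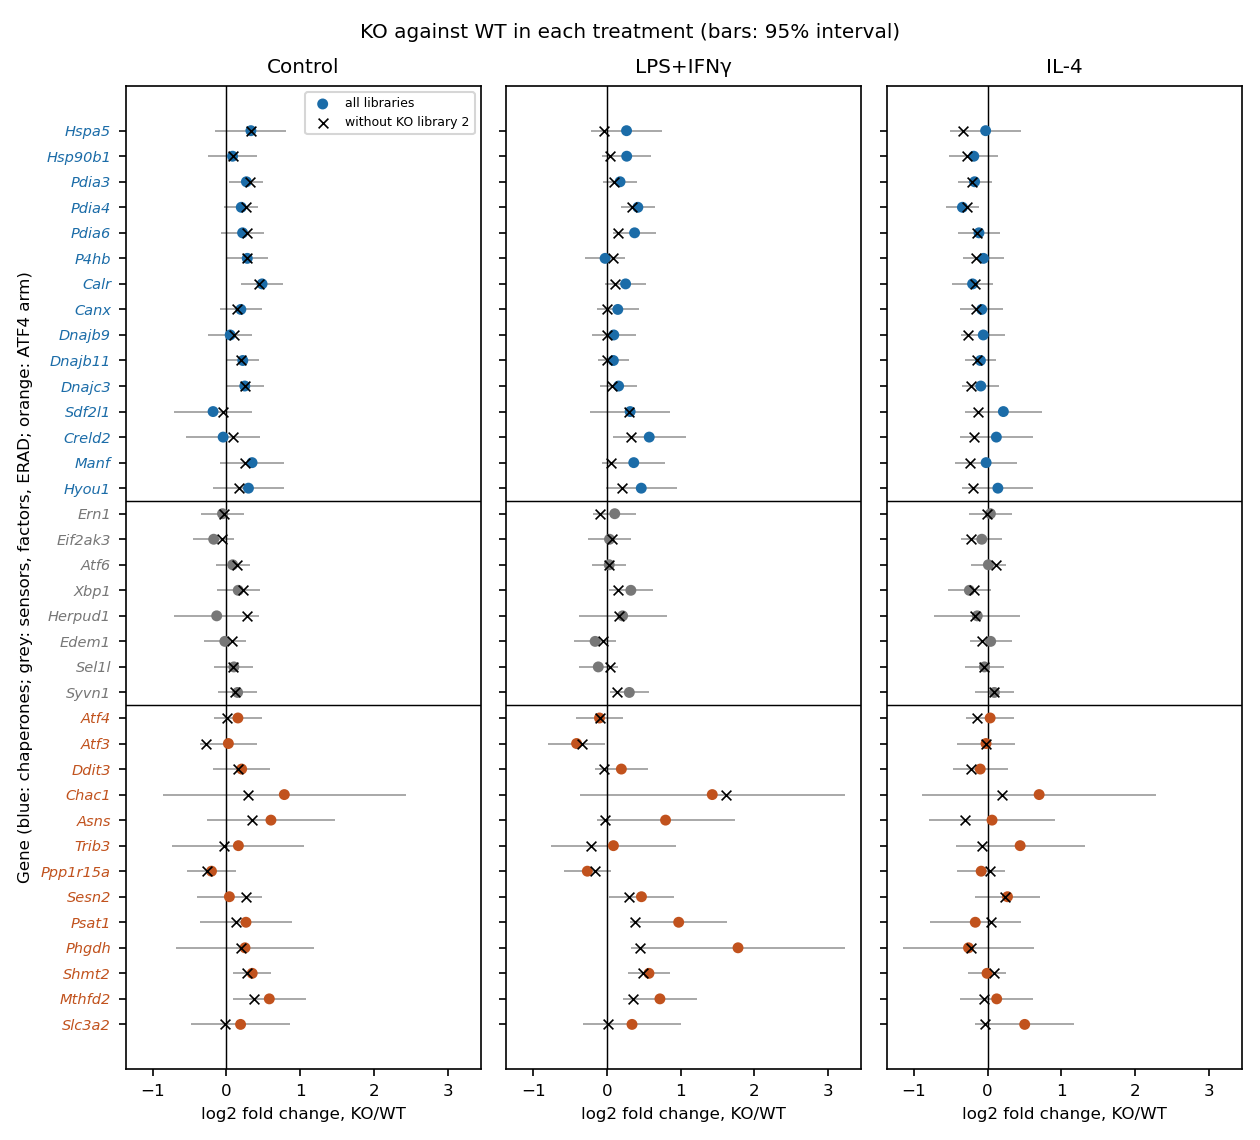
Log2 fold change of each member in KO against WT for each treatment (points coloured by set; bars are 95% intervals), with crosses for the value without KO library 2 of that treatment. Points lie mostly above 0 in control and LPS+IFNγ; crosses in the LPS+IFNγ panel sit nearer 0, with the ATF4 arm median moving from 0.47 to 0.01, and no member was called.

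Other genes of these pathways were counted from lists of 30 ER folding and ERAD genes, 36 ATF4 and amino acid stress genes and 5 genes of eIF2α control. With LPS+IFNγ in WT, 12 of 29 tested ER genes rose and 8 fell, where 27.4% of all genes were higher and 27% lower, and Ero1a, the oxidase that recharges disulfide isomerases, rose the most, from 54 and 53.7 to 401 and 362 CPM (2.82 ± 0.14, adjusted p = 5.05e-07). Mbtps1 (-0.93 ± 0.09), Erlec1 (0.88 ± 0.13) and Wfs1 (-0.75 ± 0.22) came next by size and were called. Of 34 tested ATF4 and amino acid genes, 12 rose and 9 fell, so in both lists the lower calls were near the background. Slc7a11, the cystine transporter that pairs with Slc3a2, went from 14.3 and 15.4 to 545 and 528 CPM (5.17 ± 0.32), Nupr1 changed by 4.47 ± 0.25 and Jdp2 by 3.20 ± 0.16, all called. Stc2 was near its detection limit in control, at 0 and 1 counts, and had 3 and 3.18 CPM after LPS+IFNγ. Of the 5 eIF2α genes 3 rose and 1 fell, led by Eif2ak2 (PKR, 2.91 ± 0.23) and Ppp1r15b (2.05 ± 0.14) and followed by Eif2ak1 (0.37 ± 0.12), while Eif2ak4 (GCN2) fell by 0.72. In KO the counts were 12 higher and 7 lower, 10 and 11, and 3 and 1 in the same order. Of all genes, 27.2% were higher and 26.1% lower in KO. Between KO and WT, 0 genes of these lists were called.

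With IL-4 in WT, 2 of the 29 ER genes (Wfs1 and Txndc11) and 5 of the 34 ATF4 and amino acid genes rose and 0 fell. Of all genes, 4.92% were higher and 4.12% lower, so the count of ER genes was near the background. These 7 genes and those named next were picked after their values were seen. The 5 were Slc1a5, a glutamine transporter (1.08 ± 0.21), and the tRNA synthetases Yars1, Cars1, Iars1 and Eprs1. In KO, Slc1a5 (1.07 ± 0.21) and Wfs1 (0.84 ± 0.21) rose and Nucb2 fell, where 3.52% of all genes were higher and 3.34% lower. Slc1a5 and Iars1 fell with LPS+IFNγ in WT, by 2.55 and 1.20.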

How the data were processed

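Whole-number gene counts of 12 libraries were used as deposited. They are estimated counts that the authors made with Salmon 1.10.2 on GRCm39 data, per the submitters' processing notes, which also name FastQC 0.11.9, R 4.4.1 and DESeq2 1.45.3 with no roles; settings were not given in the sources used here. Symbols and positions came from GENCODE M21 (GRCm38) by Ensembl ID, for 92% of 55891 rows, and no coordinate was converted. Libraries were grouped by genotype and treatment. Genes passing edgeR's filterByExpr (13525) were fitted with edgeR 4.0.16 (R 4.3.3, TMM factors, quasi-likelihood, 12 contrasts over 6 groups), with Benjamini-Hochberg adjustment over all of them. The steps were run on simulated data with few changed genes and equal rises and falls, which does not test the scaling of the LPS+IFNγ libraries. Totals of 13665607 to 19555600 put 3 counts at 0.138 to 0.290 CPM. Values by library are given for 7 set genes, for the called members of each set with the largest WT changes and for the 4 with the smallest p between genotypes; of other lists, the 4 with the largest called WT change with LPS+IFNγ are named. Alternatives were DESeq2 1.42.0, its size factors, total counts, no filter, a library left out, fewer groups and a replicate block. The members and all lists were chosen with earlier results of these data known.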

Additional observations from a re-analysis of the deposited data

How the results depend on the processing

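The 2 libraries of each group limit every call, and genes under 3 counts could not be resolved. In the 6 stimulus comparisons 111 calls of members were made. With DESeq2's size factors in edgeR 106 held, with DESeq2 110, with no filter on low counts 105, with only the groups compared 91, and over the settings leaving out 1 library 322 of 444; the cause was not tested. With total counts 89 held, and Dnajb9 (-0.13 in WT, -0.091 in KO) and Ern1 (-0.040, KO) with LPS+IFNγ and, against IL-4, Dnajb11 (-0.014, WT) and Atf6 (-0.086 in WT, -0.11 in KO) changed sign. Of the genotype values, Slc3a2 after IL-4 ran from -0.031 to 0.894 when 1 library was left out, the lowest without KO IL-4 library 2.

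Counts of called members that moved by over 1.5 times are given as chaperones, sensors and ERAD genes, and ATF4 arm. With total counts and LPS+IFNγ in WT, 2 chaperones were higher and 8 lower, 5 sensors and ERAD genes lower, and 5 ATF4 arm genes lower. In KO these were 2 and 7 chaperones, 1 and 5 sensors and ERAD genes, and 4 lower ATF4 arm genes. Of all 13525 genes, 2048 were then higher and 6170 lower in WT, and 1990 higher and 6049 lower in KO. Against IL-4, 0 chaperones and 1 sensor or ERAD gene were higher in WT; in KO 0 chaperones were higher and 8 lower, with 1 and 3 of the sensors and ERAD genes. The share of IL-4 calls in WT that were higher was 43.7% with total counts and 54.4% with TMM factors. With only the groups compared, LPS+IFNγ gave 9 higher chaperones and 3 higher sensors and ERAD genes in WT, and 2 higher and 0 lower chaperones and 1 higher sensor or ERAD gene in KO. These fits called 4320 of 12585 genes higher and 4360 lower in WT, and 2610 of 12531 higher and 2581 lower in KO. IL-4 then gave 13 higher chaperones, 3 higher and 2 lower sensors and ERAD genes, and 8 higher and 1 lower ATF4 arm genes in WT, and 0 in each in KO. The IL-4 fits called 1859 of 12448 genes higher and 1616 lower in WT, and only 7 of 12555 higher and 1 lower in KO. In KO, LPS+IFNγ against IL-4 gave 3 lower chaperones and 1 higher sensor or ERAD gene. With no filter, IL-4 gave 11 higher chaperones and 1 lower ATF4 arm gene in WT and 5 higher chaperones in KO, and LPS+IFNγ gave 4 lower ATF4 arm genes in KO. DESeq2 gave 11 chaperones and 2 sensors and ERAD genes higher with IL-4 in WT, 5 chaperones in KO, and 2 lower sensors and ERAD genes for LPS+IFNγ against IL-4 in KO; its size factors gave 0 higher sensors and ERAD genes with IL-4 in WT. Between genotypes, DESeq2 called 1 member in control, and no filter gave 1 after LPS+IFNγ and 1 for the mean. The counts over all genes in these settings are given with the genotype comparison.

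Leaving out 1 library at a time, LPS+IFNγ in WT gave 3 to 3 higher and 0 to 1 lower chaperones and 1 to 2 lower sensors and ERAD genes. In KO it gave 3 to 8 higher and 0 to 2 lower chaperones, 1 to 3 higher and 1 to 2 lower sensors and ERAD genes, and 2 to 4 lower ATF4 arm genes. IL-4 in WT gave 2 to 3 chaperones, 0 to 0 higher and 0 to 0 lower sensors and ERAD genes, and 1 to 1 ATF4 arm genes. In KO it gave 1 to 4 chaperones, 0 to 2 lower sensors and ERAD genes, and 1 to 2 ATF4 arm genes. LPS+IFNγ against IL-4 gave 1 to 3 higher and 1 to 2 lower sensors and ERAD genes in WT, and 3 to 5 higher chaperones and 1 to 2 lower sensors and ERAD genes in KO. Between genotypes the number of members called also moved after LPS+IFNγ and for the mean, and was highest without KO LPS+IFNγ library 1. That fit rests on KO library 2 alone for this treatment, so its calls are not read as genotype differences.

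With the replicate number as a block, 110 of 111 calls held and 1 sensor or ERAD gene, not 2, was lower with LPS+IFNγ in WT. With the replicate block within genotype all 111 held, and 5 chaperones, not 3, were higher with IL-4 in KO. The labels tie the numbers to no shared source and there are only 2 of them, so they were not taken as pairing the samples. As a hint from the data, the differences between libraries 2 and 1 correlated by 0.206 to 0.397 in the 6 pairs of groups within a genotype, and by 0.0115 to 0.338 across genotypes. The summed stromal markers were also higher in library 2 than in library 1 of every group. Whether a number marks a shared source was not tested.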
